A study of Mus musculus with 9 samples.

Results

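The genes described here encode proteins of the mitochondrial ribosome. They were chosen by symbol alone, as every gene whose name begins with Mrpl or Mrps followed by a number. The rule found 76 of the 27095 loci in the deposited expression table, and all 76 had a mean level of at least 1 FPKM over the 3 groups, as did 15548 of all loci. FPKM counts fragments per length of transcript and per number of fragments mapped in the library, so levels of different genes can be set side by side per unit of length. By the current assignment of the proteins, 49 members belong to the large subunit and 26 to the small subunit. Mrps36 is now placed in the 2-oxoglutarate dehydrogenase complex and is counted apart.

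The samples were wild-type mouse fetuses taken at gestational day 17, in groups of 3, of the strain labelled C57BL/6, which the methods of the study give as C57BL/6J. Control fetuses came from dams injected with lactated Ringer's solution, and exposed fetuses from dams given EtOH at 2.9 g/kg by the same intraperitoneal route, in each case on gestational day 7. Exposed fetuses were divided into EtOH-exposed unaffected animals, which looked normal, and EtOH-exposed affected animals, which had ocular and craniofacial defects. The exposed groups therefore share the EtOH and differ in a phenotype that was scored after it. The labels call the tissue fetal brain, and the methods of the study call it cortex. The table holds 1 FPKM per group, which the authors' software made from the 3 animals, and 0 columns with values of single animals. No spread between animals could therefore be computed here and no test or interval is given, the depth behind each value is unknown, and all comparisons below are descriptions of these group values.

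Mitochondrial ribosomes sit in the matrix, close to the inner membrane, and make the few proteins that mitochondrial DNA still encodes, all of them core parts of the respiratory chain or ATP synthase. Their RNA comes from the mitochondrial genome, while every one of their proteins is encoded in the nucleus, made in the cytosol and imported. Some of the proteins have a counterpart in the bacterial ribosome, and others were gained during the evolution of mitochondria. Nuclear genes of this kind are known for compact promoters with sites for NRF1, for ETS proteins such as GABPA, for YY1 and for Sp1.

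The promoters of the members were read from the RefSeq promoter table of GRCm38.p6, the assembly that matches the mm10 build of the deposited table. Each window runs from 250 bases before to 50 bases after a transcription start. Windows were found for 67 of 76 members, 73 windows in all, out of 32851 windows in the table. Motifs for 4 factors were searched on both strands, and no matches of different motifs overlapped in the members' windows. The ETS letters CCGGAAG were in 32.9% of the members' windows, in 17% of windows of genes that passed the level filter and in 8.86% of all windows. The YY1 letters AAGATGGC were in 16.4% of the members' windows, in 4.32% of windows of genes past the filter and in 2.75% of all windows. The NRF1 letters GCATGCG were in 11% of the members' windows, in 6.28% of those past the filter and in 3.58% of all. The Sp1 letters GGGGCGG were in 38.4% of the members' windows, in 43.2% of those past the filter and in 23.2% of all. The ETS, YY1 and NRF1 letters thus stood in a larger share of the members' windows than of the windows past the filter, and the Sp1 letters in a smaller share. In 21 of the 73 windows none of these letters was found.

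A set of 5 windows is printed 5′ to 3′ on the strand of the named gene, with motif matches in capitals. They show the member with the highest level (Mrpl52), the member in a locus of its own with the lowest ratio of affected to control (Mrpl33), the member with the most NRF1 matches (Mrpl32), the member with the highest ratio of affected to control (Mrps2), and a stretch from which the members Mrpl46 and Mrps11 run in opposite directions (the Mrps11 window). Their positions are chr14:54426659-54426958 on the plus strand, chr5:31613701-31614000 on the plus strand, chr13:14612988-14613287 on the minus strand, chr2:28467816-28468115 on the plus strand and chr7:78782881-78783180 on the plus strand.
Mrpl52: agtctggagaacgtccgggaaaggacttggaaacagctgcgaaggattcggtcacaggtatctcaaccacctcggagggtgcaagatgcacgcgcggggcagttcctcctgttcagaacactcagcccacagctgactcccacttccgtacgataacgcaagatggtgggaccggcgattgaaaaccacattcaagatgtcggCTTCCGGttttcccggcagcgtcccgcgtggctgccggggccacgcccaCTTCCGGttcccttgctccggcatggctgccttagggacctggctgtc
Mrpl33: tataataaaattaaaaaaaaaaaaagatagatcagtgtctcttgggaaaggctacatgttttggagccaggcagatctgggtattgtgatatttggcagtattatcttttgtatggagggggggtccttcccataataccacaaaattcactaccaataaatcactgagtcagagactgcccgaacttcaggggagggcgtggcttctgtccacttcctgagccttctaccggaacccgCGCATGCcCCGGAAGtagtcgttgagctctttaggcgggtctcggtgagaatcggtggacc
Mrpl32: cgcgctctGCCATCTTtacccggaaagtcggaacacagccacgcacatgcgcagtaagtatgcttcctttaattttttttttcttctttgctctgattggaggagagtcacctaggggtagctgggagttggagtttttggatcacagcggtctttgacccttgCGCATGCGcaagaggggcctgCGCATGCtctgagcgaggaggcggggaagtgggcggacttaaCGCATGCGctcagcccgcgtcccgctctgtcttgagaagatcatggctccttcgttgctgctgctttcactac
Mrps2: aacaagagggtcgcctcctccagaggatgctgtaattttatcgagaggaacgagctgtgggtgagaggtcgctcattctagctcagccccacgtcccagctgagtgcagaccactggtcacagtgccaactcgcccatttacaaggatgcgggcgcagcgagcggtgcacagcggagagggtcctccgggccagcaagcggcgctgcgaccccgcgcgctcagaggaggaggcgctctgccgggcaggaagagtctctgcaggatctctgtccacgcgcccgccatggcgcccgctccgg
Mrps11: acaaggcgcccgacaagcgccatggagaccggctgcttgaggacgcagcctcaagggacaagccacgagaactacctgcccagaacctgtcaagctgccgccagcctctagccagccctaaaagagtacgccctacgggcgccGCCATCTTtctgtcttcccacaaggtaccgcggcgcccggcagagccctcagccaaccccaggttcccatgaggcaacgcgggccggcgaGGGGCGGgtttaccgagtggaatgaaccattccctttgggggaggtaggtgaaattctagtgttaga
The Mrpl52 window holds 2 ETS matches. The Mrpl33 window holds an NRF1 match followed by an ETS match, and the Mrpl32 window 1 YY1 match and 5 NRF1 matches, some of which are the same palindrome read on both strands. The Mrps11 window holds 1 YY1 and 1 Sp1 match, and no letters were capitalised in the Mrps2 window. Ratios of affected to control were close with and without these letters. Members with an ETS match had a median log2 ratio of -0.28 and those without one -0.23, while the medians were -0.20 and -0.27 for YY1, -0.23 and -0.25 for NRF1, and -0.28 and -0.25 for Sp1.

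Most members stood at middling levels, and a few small proteins stood well above the rest. The median member stood at 37.5 FPKM in controls, 40.6 in unaffected and 32.3 in affected fetuses, against 8.28, 8.16 and 8.45 for all loci past the filter. The levels ran from 6.36 to 272 in control, a 42.8-fold span, although the ribosome holds most of these proteins in equal number. Of the 76 members, 49 had a mean between 20 and 60 FPKM, 10 had at least 100 and 4 had under 10. The order of the members was nearly the same in every group, with a Spearman rho across the 76 members of 0.987 between affected and control, 0.982 between affected and unaffected and 0.996 between unaffected and control. These correlations are descriptions over genes that share the same libraries.

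**Figure D1:**
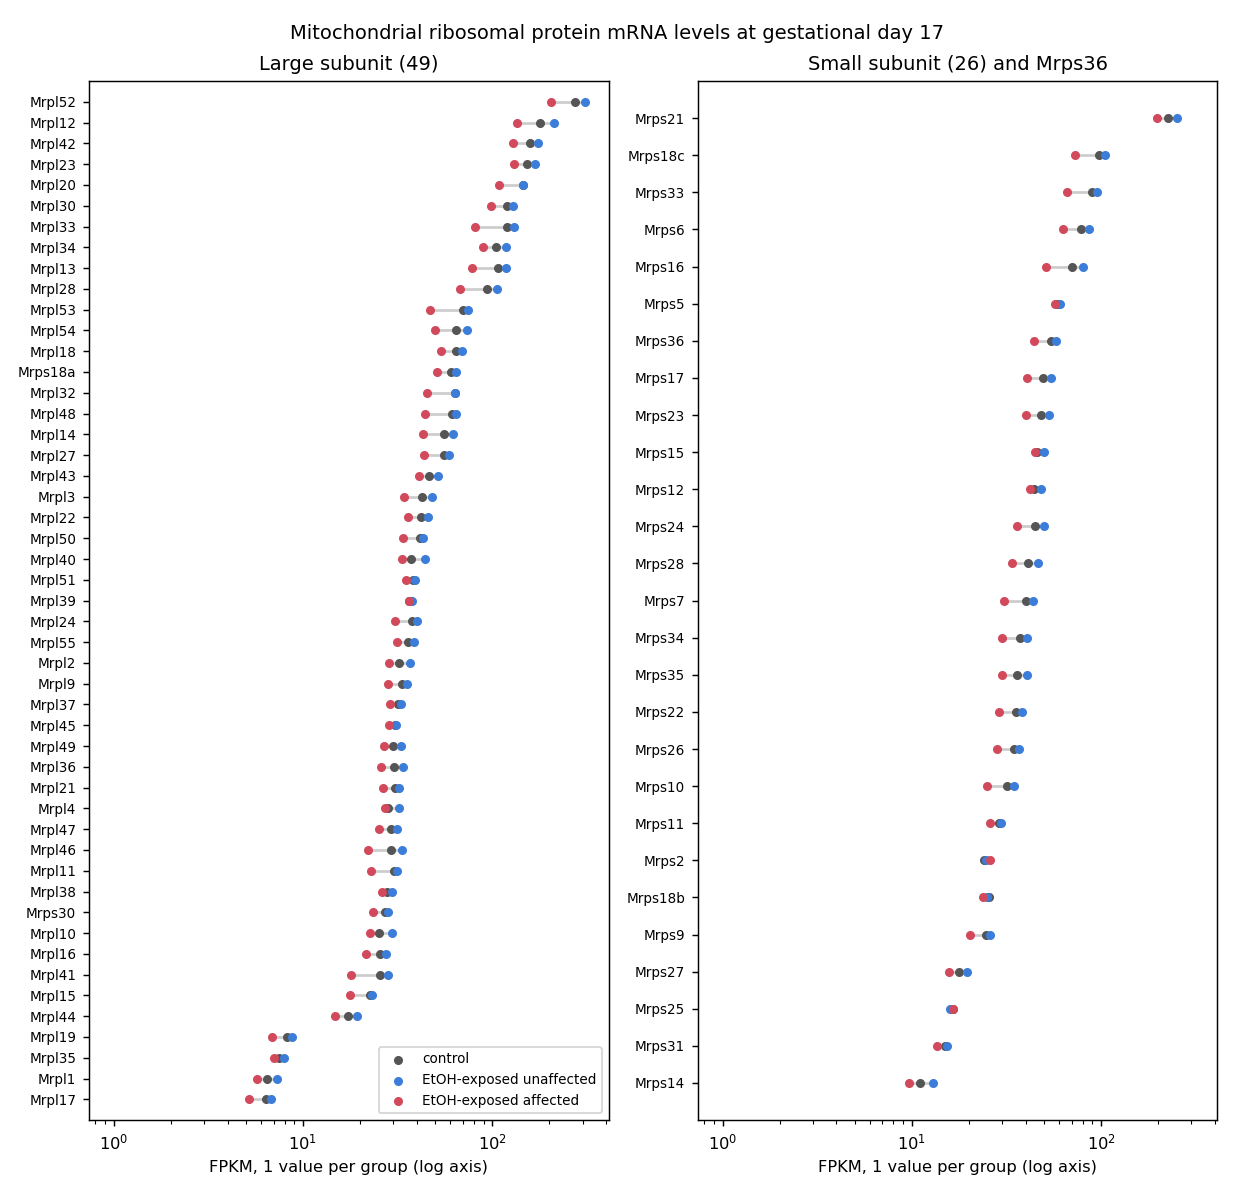
FPKM of each of the 76 members on a log axis, 1 value per group, with large-subunit members on the left and small-subunit members with Mrps36 on the right, both ordered by mean level. The grey line joins the lowest and highest group, and in 73 members the affected group is the lowest, also where the level is under 10 FPKM.

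The highest member was Mrpl52, a large-subunit protein found only in mitochondrial ribosomes, with 272 FPKM in control, 309 in unaffected and 204 in affected fetuses. Next came Mrps21, a small-subunit protein with a bacterial counterpart, at 225, 251 and 197 FPKM. Mrpl12 followed at 178, 213 and 135 FPKM. It forms the flexible stalk that recruits translation factors. Mrpl42, which is particular to mitochondria, stood at 158, 175 and 129 FPKM, and Mrpl23, a protein at the exit of the peptide tunnel, at 152, 169 and 129.7 FPKM. In all 5 of them the affected group was the lowest and the unaffected group the highest, and together they held 23.7% of the summed FPKM of the members in control, 24.5% in unaffected and 23.5% in affected fetuses. The lowest members were Mrpl17 at 6.36, 6.82 and 5.19 FPKM, Mrpl1 at 6.47, 7.27 and 5.69, and Mrpl35 at 7.47, 7.91 and 7.04, again with affected lowest and unaffected highest.

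The groups also differed in sex-linked transcripts, by values examined after the table was opened, and this bears on all 3 comparisons. Xist, transcribed from the inactive X chromosome of females, stood at 9.24 FPKM in control, 0.021 in unaffected and 10.3 in affected fetuses. The 4 male-specific genes Ddx3y, Kdm5d, Eif2s3y and Uty summed to 11.9, 38.5 and 0.048 FPKM in the same order. Affected was thus the lowest and unaffected the highest group for the male-specific genes, as for most members. The labels give no sex, and in these group values the group and the sex of the animals cannot be told apart. No member lies on the X or Y chromosome, and the 76 members are spread over 17 chromosomes with at most 10 on any of them.

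The first comparison asks how fetuses with defects differed from unexposed controls. Mitochondrial ribosomal protein mRNAs were lower in the affected group across nearly the whole family. The log2 ratio of affected to control was below 0 in 73 of 76 members, with a median of -0.26 and quartiles of -0.35 and -0.17, while 47% of all loci were below 0 with a median of 0.02. Scaling to an equal sum over all named loci raised every log2 ratio by 0.17 and left 57 of 76 members below 0, with a median of -0.08. Scaling to Gapdh and Ywhaz, a pair of reference genes, put 76 of 76 below 0, with a median of -0.36. Summed over the 76 members, FPKM was 4164 in control and 3383 in affected fetuses, a ratio of 0.81. A locus was called lower when its ratio was 0.8 or less, and higher when the inverse ratio was, a limit of size and not a test. By that limit 22 members (28.9%) were lower and 0 were higher, where 11.3% of all loci were lower and 12.1% higher. The count moved with the scaling. It was 3 under the equal-sum scaling, where 4.81% of all loci were lower and 31.7% higher. It was 47 when scaled to Gapdh and Ywhaz, where 19.5% were lower and 6.5% higher. As deposited, the members' share of lower genes was above the background, but most members lay inside the limit, and the smallest ratio in the family was 0.67.

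Of the 5 lowest ratios, the first was that of the locus that joins Mrpl53 with its neighbour Ccdc142. It stood at 70.3 FPKM in controls, 74.9 in unaffected and 47.1 in affected fetuses, a log2 ratio of affected to control of -0.58, and the share of each gene in the value cannot be told apart. Mrpl33, one of the smallest proteins of the large subunit, had 119.6, 131 and 80.7 FPKM and a log2 ratio of -0.57. It is the lowest ratio among members in a locus of their own. Mrpl41, a large-subunit protein particular to mitochondria, had 25.6, 28.3 and 18.0 FPKM and a log2 ratio of -0.50. Mrpl48 had 61.3, 64.4 and 44.0 FPKM and a log2 ratio of -0.48, although 708 of its exon bases lie over exons of Rab6a on the annotation. Mrpl32, whose maturation in the matrix is a known step of ribosome assembly, had 63.3, 63.6 and 45.5 FPKM and also a log2 ratio of -0.48. In each of these 5 loci affected was the lowest group, and control and unaffected differed far less from each other than either did from affected.

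At the other end, 3 members did not share the direction of the family. Mrps2, a small-subunit protein with a bacterial counterpart, had 24.1 FPKM in control, 24.7 in unaffected and 25.8 in affected fetuses, so that affected was the highest group and not the lowest, and its log2 ratio of affected to control was 0.10. Scaled to Gapdh and Ywhaz, which the study used as reference genes in cortex, this ratio was -0.0038, and under the equal-sum scaling it was 0.27. Mrpl39, a large-subunit protein particular to mitochondria, was at 36.3, 37.9 and 36.5 FPKM, with a log2 ratio of 0.0053. Mrps25 was at 16.5, 15.9 and 16.5 FPKM, with a log2 ratio of 0.0011. It shares 4590 exon bases with Nr2c2, and the library kit does not mark strand, so its value is uncertain. Centred on the median of all loci, Mrpl39 and Mrps25 were below 0 at -0.014 and -0.018, while under the equal-sum scaling both were at 0.18. Mrps5, at 58.5, 60.9 and 57.3 FPKM, and Mrps15, at 45.8, 50.1 and 44.6 FPKM, were the next highest, with log2 ratios of -0.03 and -0.04, or 0.15 and 0.13 under the equal-sum scaling. Of these 5 members, 4 encode small-subunit proteins.

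The second comparison sets affected fetuses against fetuses that had the same EtOH exposure and no defects, and here the family stood further apart. The log2 ratio of affected to unaffected was below 0 in 74 of 76 members, with a median of -0.38 and quartiles of -0.46 and -0.31, against 48.7% below 0 and a median of 0.01 over all loci. With the equal-sum scaling, which raised every log2 ratio by 0.25, it was below 0 in 61 of 76, with a median of -0.13. Scaled to Gapdh and Ywhaz, it was below 0 in 76 of 76, with a median of -0.45. By the ratio limit of 0.8, 55 members (72.4%) were lower and 0 higher, where 18.1% of all loci were lower and 20.3% higher. Under the equal-sum scaling 9 members were lower, with 5.29% of all loci lower and 43.3% higher. Scaled to Gapdh and Ywhaz, 61 members were lower, with 24.1% of all loci lower and 15.4% higher. The summed FPKM was 4556 in unaffected and 3383 in affected fetuses, a ratio of 0.74. The 5 lowest log2 ratios were those of Mrpl33 at -0.69, Mrpl53 with Ccdc142 at -0.67, Mrpl12 at -0.66, Mrps16 at -0.65 and Mrpl28 at -0.65. Mrps16, a small-subunit protein mutated in a human mitochondrial disease, had 70.2 FPKM in control, 80.5 in unaffected and 51.1 in affected fetuses. Mrpl28 had 93.9, 106 and 67.8 FPKM. The highest were Mrps2 at 0.06, Mrps25 at 0.05, Mrpl39 at -0.05, Mrps18b at -0.07 and Mrps5 at -0.09.

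The third comparison asks what EtOH exposure without defects went with. Members were slightly higher in unaffected than in control fetuses, in the direction opposite to the affected group. The male-specific genes were also higher in unaffected fetuses, and Xist was at 0.021 FPKM against 9.24 in control. The log2 ratio of unaffected to control was above 0 in 74 of 76 members, with a median of 0.11, quartiles of 0.08 and 0.16 and a highest value of 0.25, where 51.6% of all loci were above 0 with a median of 0.01. Under the equal-sum scaling 58 of 76 were above 0, and 71 were when scaled to Gapdh and Ywhaz. No member passed the ratio limit, 0 lower and 0 higher, where 6.8% of all loci were lower and 5.45% higher. The summed FPKM was 9.41% above that of control. The 5 highest log2 ratios were Mrpl12 at 0.25, Mrps14 at 0.23, Mrpl40 at 0.23, Mrpl10 at 0.23 and Mrpl54 at 0.20. Mrps14 had 11.0 FPKM in control, 13.0 in unaffected and 9.68 in affected fetuses, Mrpl40 had 37.4, 44.0 and 33.5, and Mrpl54 had 64.0, 73.8 and 49.8. The 5 lowest were Mrps25 at -0.05, Mrps18b at -0.02, Mrpl20 at 0.0020, Mrpl32 at 0.0060 and Mrpl45 at 0.02. Mrpl20, whose bacterial counterpart binds early in assembly of the large subunit, had 145.0 FPKM in control, 145.2 in unaffected and 108 in affected fetuses, so its difference lay wholly in the affected group.

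The 3 comparisons share their groups, so they are not independent of one another. Read as an order of levels, 72 of 76 members (94.7%) had the affected group lowest and the unaffected group highest, a pattern found in 30.9% of all loci past the filter.

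The medians of both subunits were close. In the large subunit 48 of 49 members were below 0 in affected against control, with a median log2 ratio of -0.25 and 16 lower by the ratio limit. In the small subunit 24 of 26 were below 0, with a median of -0.26 and 6 lower by that limit, where 11.3% of all loci were lower. Against unaffected fetuses the medians were -0.38 and -0.41, with 37 of 49 and 17 of 26 lower, where 18.1% of all loci were. Under the equal-sum scaling the medians of the large and small subunit were -0.08 and -0.09 in affected against control, and -0.13 and -0.16 in affected against unaffected. Members with a bacterial counterpart had a median of -0.27 in affected against control, with 15 of 46 lower, and members particular to mitochondria a median of -0.25, with 7 of 29 lower. The ranges of the 4 classes overlapped. In affected against control the log2 ratios ran from -0.57 to -0.04 in large-subunit members with a bacterial counterpart, from -0.58 to 0.0053 in those particular to mitochondria, from -0.46 to 0.10 in small-subunit members with a counterpart and from -0.44 to 0.0011 in those without one.

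**Figure D2:**
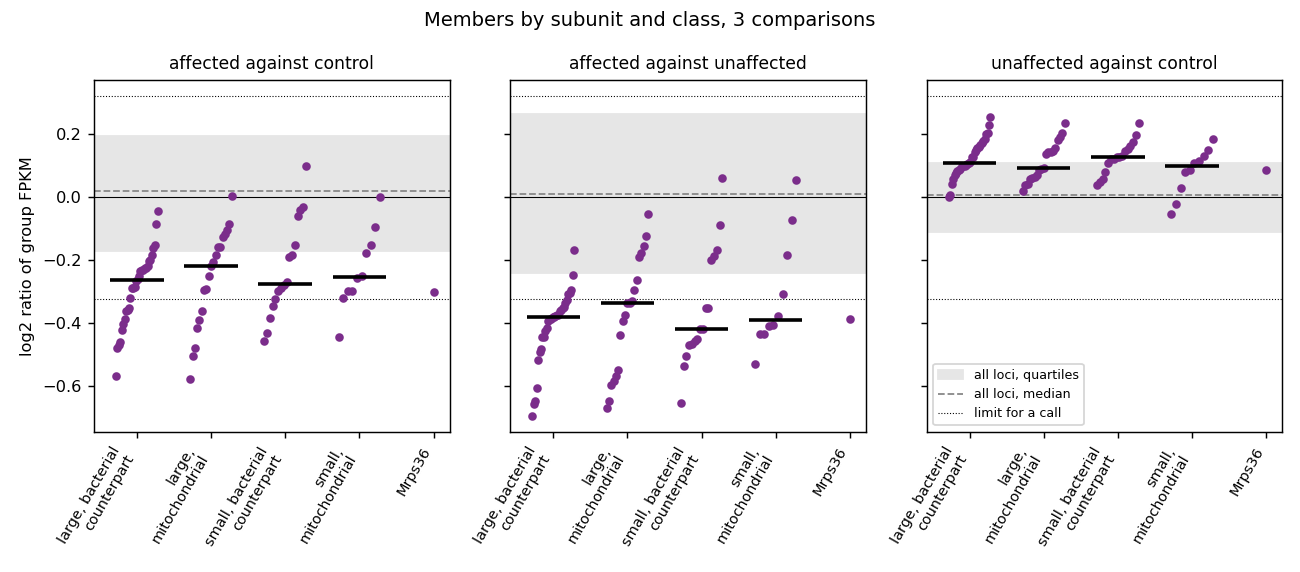
Log2 ratio of group FPKM for each member, by subunit and by whether the protein has a bacterial counterpart, in the 3 comparisons. Bars mark class medians, the grey band and dashed line the quartiles and median of all 15548 loci past the filter, and dotted lines the limit for a call. The class medians lie between -0.28 and -0.22 in affected against control and between 0.09 and 0.13 in unaffected against control.

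Proteins of the stalk that receives translation factors differed from one another in their ratios. Mrpl11, at the stalk base, had 30.1 FPKM in control, 31.3 in unaffected and 23.0 in affected fetuses, a log2 ratio of affected to control of -0.39. Mrpl10, which anchors the stalk, had 25.3, 29.6 and 22.7 FPKM and a log2 ratio of -0.15, and the stalk protein Mrpl12 had a log2 ratio of -0.40. Near the peptidyl transferase centre, Mrpl3 had 42.6, 47.9 and 34.1 FPKM with a log2 ratio of -0.32, and Mrpl2 had 32.0, 36.8 and 28.6 FPKM with a log2 ratio of -0.16. Mrpl45, which ties the ribosome to the inner membrane at the tunnel exit, had 30.6, 31.0 and 28.4 FPKM and a log2 ratio of -0.10. Mrpl44, a large-subunit protein related to RNase III, had 17.3, 19.3 and 14.9 FPKM and a log2 ratio of -0.22. All 7 were lower in affected than in control, and Mrpl11 and Mrpl12 passed the limit, where 11.3% of all loci were lower. Mrpl3 passed as well when centred on the median of all loci or scaled to Gapdh and Ywhaz, where 12.6% and 19.5% of all loci were lower. Under the equal-sum scaling 0 of the 7 passed it, where 4.81% of all loci did. There Mrpl11 was at -0.21 and Mrpl12 at -0.23, and Mrpl10, Mrpl2 and Mrpl45 were above 0 at 0.02, 0.01 and 0.07.

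Of the small-subunit proteins chosen by role, Mrps12 at the decoding centre had 44.1 FPKM in control, 48.2 in unaffected and 42.4 in affected fetuses, a log2 ratio of affected to control of -0.06, or 0.12 under the equal-sum scaling. Mrps16 had a log2 ratio of -0.46 and Mrps22, also mutated in a human disease, one of -0.30, at 35.4, 38.2 and 28.8 FPKM. Mrps34, which the stability of the small subunit depends on, had 37.4, 40.5 and 30.0 FPKM and a log2 ratio of -0.32. Its exons overlap those of Mapk8ip3 over 1309 bases and of Nme3 over 763, so part of its reads may not be its own. Differences within the small subunit, from -0.46 for Mrps16 to 0.10 for Mrps2, were not weighed against a spread between animals.

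Some names mislead about place. The paralogs Mrps18a, Mrps18b and Mrps18c descend from 1 bacterial protein, and Mrps18a now sits in the large subunit. Mrps18c had 97.9 FPKM in control, 105 in unaffected and 72.7 in affected fetuses, a log2 ratio of affected to control of -0.43. Mrps18a had 60.5, 64.1 and 50.8 FPKM and a log2 ratio of -0.25. Mrps18b had 25.5, 25.1 and 23.9 FPKM and a log2 ratio of -0.09, or 0.08 under the equal-sum scaling, so the order of the ratios followed the order of the levels in these 3 genes. Mrps30, also a large-subunit protein despite its name, had 27.1, 28.2 and 23.6 FPKM and a log2 ratio of -0.20. Mrps36, which is no ribosomal protein, had 54.2, 57.5 and 44.0 FPKM and a log2 ratio of -0.30, inside the range of the ribosomal members. Mrps6 shares its locus name with Slc5a3, a solute carrier gene, and had 77.9, 86.5 and 63.3 FPKM with a log2 ratio of -0.30.

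Some members overlap other genes. At least 100 exon bases of 20 members lie over exons of another coding gene. Without those 20, the remaining 56 members had a median log2 ratio of -0.25 in affected against control, with 54 below 0, and of -0.38 in affected against unaffected, with 55 below 0. The family's values were thus about as large without them.

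The ratios also went with transcript length, over the whole table as well as within the family. Length was taken as the median over a gene's coding transcripts in the GENCODE M21 annotation. All 76 members had one, with a median of 1038 nt, as did 11818 of the 15548 loci past the filter (76%), with a median of 2240 nt. The loci without a length are not covered by what follows. Across the 76 members the Spearman rho between length and the log2 ratio was 0.38 for affected against control, 0.43 for affected against unaffected and -0.27 for unaffected against control. Over all 11818 loci it was 0.46, 0.52 and -0.43, so that short transcripts generally had lower ratios than long ones in both comparisons of affected fetuses. A scaling leaves these rho values as they are, but it moves the side of 0 on which a ratio lies. Level went with the ratio as well, with a rho of -0.48 across members and -0.16 over the loci with a length in affected against control. These are descriptions over genes of the same libraries.

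Set beside other coding loci of like length, the members were lower in every length class. Under 600 nt, 5 members had a median log2 ratio of affected to control of -0.42 and the other 405 loci -0.16. From 600 to under 1000 nt, 31 members had -0.29 and 1632 others -0.13. From 1000 to under 1500 nt, 19 members had -0.22 and 1582 others -0.11. From 1500 to under 2500 nt, 11 members had -0.23 and 2907 others -0.02. At 2500 nt and more, 10 members had -0.20 while 5216 others had 0.12. Of these classes, 3 hold 11 members or fewer, and in the longest class 9 of 10 members were below 0 where 28% of the other loci were. Between 722 and 1699 nt, the quartiles of the members, 15.6% of all loci were called lower in affected against control and 31.9% in affected against unaffected. Those shares are larger than the 11.3% and 18.1% over all lengths and smaller than the members' 28.9% and 72.4%. This length window was chosen after the data were seen, and the part of length in the members' ratios was not tested.

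**Figure D3:**
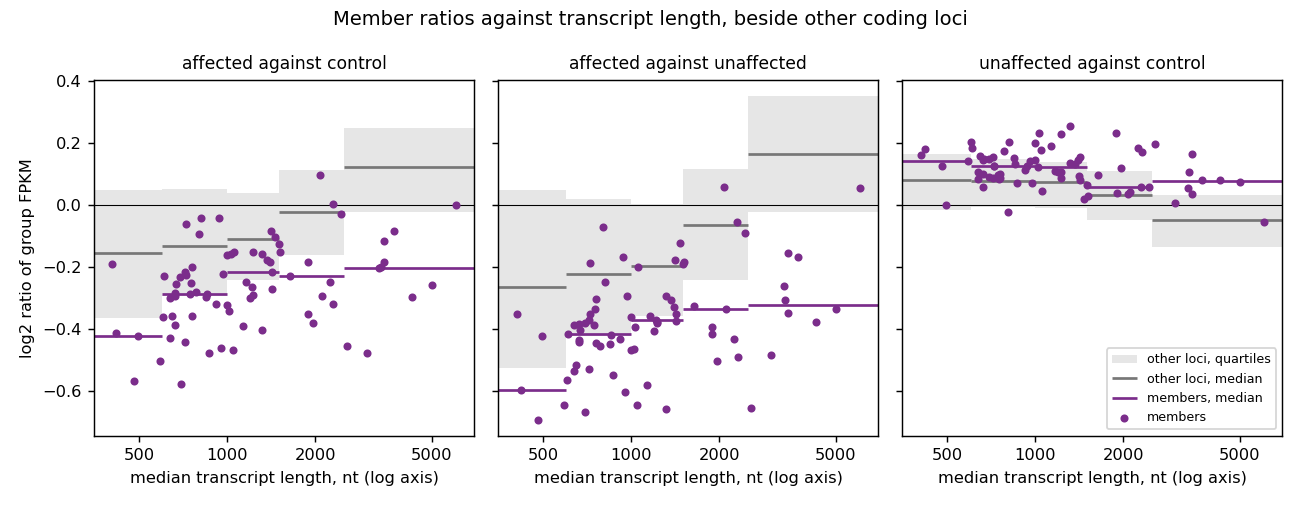
Log2 ratio of group FPKM against median transcript length (log axis) in the 3 comparisons. Points are the 76 members, purple lines their medians in 5 length classes, and grey lines and bands the medians and quartiles of other coding loci in the same classes. In affected against control the grey medians run from -0.16 in the shortest class to 0.12 in the longest, and the members' medians from -0.42 to -0.20.

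In the values as deposited, the medians of other lists of mitochondrial translation lay nearer 0 than that of the ribosomal proteins, with the exception of ribosome subunits that carry other names. How near 0 a median lay depended on the scaling, which adds the same constant to every log2 ratio and keeps the order of the medians. Under the equal-sum scaling the members' median was -0.08, and those of translation factors and transcription genes were above 0 at 0.09 and 0.08. No test of the difference was run. All 7 subunits with other names were lower in affected than in control, with a median log2 ratio of -0.31. Under the equal-sum scaling the median was -0.13 and 6 of 7 were below 0, with Dap3 above it at 0.08. Chchd1 had 179.5 FPKM in control, 193 in unaffected and 126 in affected fetuses and a log2 ratio of -0.51. Mrp63 had 14.5, 15.8 and 11.1 FPKM and a log2 ratio of -0.38. Ict1, a peptidyl-tRNA hydrolase built into the large subunit, had 69.1, 81.3 and 55.7 FPKM and a log2 ratio of -0.31. Gadd45gip1 had 22.7, 25.3 and 18.3 FPKM and a log2 ratio of -0.31, Aurkaip1, in a locus joined with Ccnl2, one of -0.26, and Ptcd3 one of -0.24. Dap3, the GTP-binding protein of the small subunit, was closest to 0 at 18.5, 19.2 and 17.3 FPKM, with a log2 ratio of -0.10. As deposited, only Chchd1 and Mrp63 passed the limit in affected against control, and 6 of the 7 did in affected against unaffected, where 11.3% and 18.1% of all loci were lower. The first of these counts was 4 when centred on the median of all loci, 6 when scaled to Gapdh and Ywhaz and 1 under the equal-sum scaling. In the same order, 12.6%, 19.5% and 4.81% of all loci were lower.

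The 25 genes of ribosome assembly and rRNA modification had a median log2 ratio of -0.14 in affected against control, with 4 lower (16%) and 0 higher by the limit, where 11.3% of all loci were lower and 12.1% higher, and under the equal-sum scaling their median was 0.03 and scaled to Gapdh and Ywhaz -0.24. Trmt61b, an RNA methyltransferase, was the lowest at -0.51, with 11.0 FPKM in control, 10.4 in unaffected and 7.67 in affected fetuses. Dhx30, an RNA helicase of mitochondrial RNA granules, was the highest at 0.23, with 22.6, 22.2 and 26.6 FPKM. The 13 translation factors had a median of -0.08, or 0.09 under the equal-sum scaling, -0.19 scaled to Gapdh and Ywhaz and -0.03 over genes with a mean of at least 5 FPKM, with 1 lower by the limit (7.69%, against 11.3% of all loci). They ran from Guf1, an elongation factor, at -0.35 to Tufm, which brings aminoacyl-tRNA to the ribosome, at 0.08. Tufm stood at 62.8, 61.6 and 66.4 FPKM.

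The 20 mitochondrial aminoacyl-tRNA synthetases and tRNA amidation genes had a median of -0.11, or 0.06 under the equal-sum scaling and -0.22 scaled to Gapdh and Ywhaz, with 1 lower by the limit (5%, against 11.3% of all loci), Hars2 at -0.33. The highest was Ears2 at 0.29, with 2.89 FPKM in control, 3.48 in unaffected and 3.54 in affected fetuses. Lars2 differed from the others in the exposed unaffected group, with 166, 235 and 176 FPKM and a log2 ratio of unaffected to control of 0.50. It was the only gene of the list called higher there (5%, against 5.45% of all loci). Its level also stood apart, as the next highest gene, Gatc, had 34.2, 35.1 and 36.1 FPKM. Which reads made up the Lars2 value could not be checked. The 7 genes of mitochondrial transcription had a median of -0.09, or 0.08 and -0.20 under the same scalings, with 2 lower (28.6%). Slirp, a stabiliser of mitochondrial mRNA, had 141, 148 and 102 FPKM and a log2 ratio of affected to control of -0.47, while its binding partner Lrpprc had 23.4, 20.8 and 23.6 FPKM and 0.01. Polrmt, the mitochondrial RNA polymerase, was the highest of these at 0.16.

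A pair of other families were set beside the members. The 77 cytosolic ribosomal protein genes past the filter, of 80 found, had a median log2 ratio of -0.40 in affected against control, -0.56 in affected against unaffected and 0.15 in unaffected against control, and 59 (76.6%) were lower by the limit in the first of these, where 11.3% of all loci were. The 38 genes for subunits of complex I of the respiratory chain had medians of -0.36, -0.49 and 0.14, with 24 (63.2%) lower in the first. The members' medians of -0.26, -0.38 and 0.11 lay nearer 0 than those of both families in every comparison, and the signs were the same. Median transcript lengths were 714 nt for the cytosolic ribosomal proteins and 734 nt for complex I, against 1038 nt for the members. Among the lists of mitochondrial translation and transcription the order of the ratios was not that of the lengths. The median length was 2508 nt for the subunits with other names, over 6 of 7, whose ratios lay further from 0 than the members', and 894 nt for the transcription genes, which lay nearer 0. It was 1476.5 nt for assembly factors, over 24 of 25, 1799 nt for translation factors and 2013.5 nt for synthetases. Whether the families differed from the members beyond the spread between animals was not tested.

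**Figure D4:**
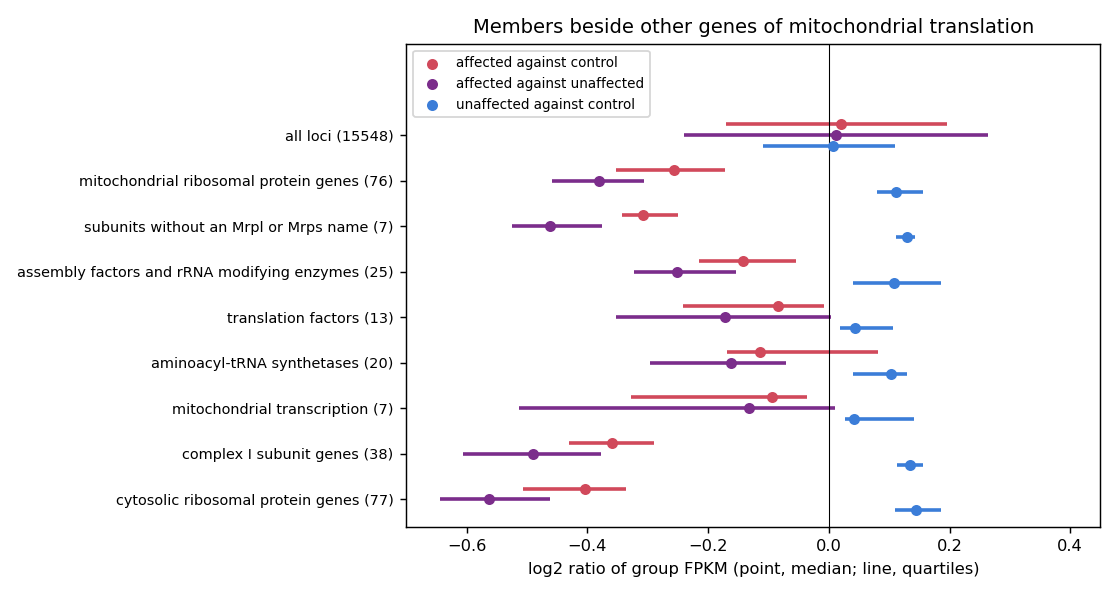
Median (point) and quartiles (line) of the log2 ratio of group FPKM in the 3 comparisons for the members, 5 lists of other genes of mitochondrial translation and transcription, complex I subunits, cytosolic ribosomal proteins and all loci, with the number of genes past the filter in brackets. In affected against control the medians run from 0.02 for all loci through -0.26 for the members to -0.40 for cytosolic ribosomal proteins. In that comparison, under a scaling to an equal sum of named loci, the medians of the 4 lists from assembly factors to transcription are above 0.

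Many members have an annotated start close to that of a gene on the opposite strand. A coding gene that runs the other way from within 1000 bp was annotated for 32 of 76 members (42.1%) and for 16% of the 11817 coding genes past the filter. For 28 of these pairs the neighbour was no member and passed the filter. In affected against control all 28 members of these pairs were below 0, with a median log2 ratio of -0.22, while 12 of 28 neighbours were below 0, with a median of 0.06. By the ratio limit 8 of the 28 members and 4 of the neighbours (14.3%) were lower, and 3 neighbours were higher, where 11.3% of all loci were lower and 12.1% higher, so that the neighbours were near the background. The neighbours with the lowest ratios were Fau, which encodes a cytosolic ribosomal protein, at -0.48 beside Mrpl49 at -0.16, and Ndufs6, a complex I gene, at -0.47 beside Mrpl36 at -0.22. The highest was Ppp1r10, a phosphatase regulator, at 0.42 beside Mrps18b at -0.09. The member and its neighbour lay on opposite sides of 0 in 16 of 28 pairs, in 8 when scaled to Gapdh and Ywhaz and in 12 under the equal-sum scaling, which put 9 of the 28 members above 0. Some of these pairs also share exon bases in these unstranded libraries.

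**Figure D5:**
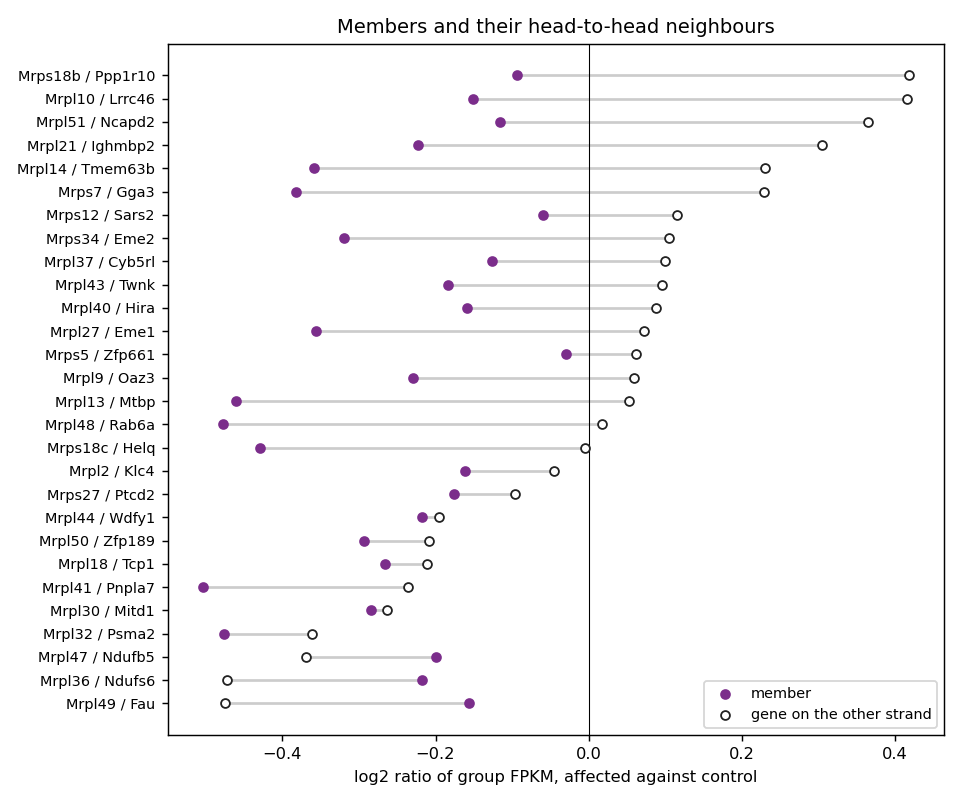
Log2 ratio of group FPKM in affected against control for 28 members (filled) and the coding gene that starts within 1000 bp on the other strand (open), joined by a line and ordered by the neighbour's value. All 28 members lie below 0, and 16 of the 28 neighbours lie above it.

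The annotated starts of 2 members, Mrpl46 and Mrps11 on chromosome 7, lie close together on opposite strands. Their loci in the table lie 41 bases apart and their promoter windows share 141 bases, chr7:78783040-78783180. The Sp1 match of the printed Mrps11 window lies in the shared stretch and its YY1 match outside it. Mrpl46 had 29.1 FPKM in control, 33.3 in unaffected and 22.2 in affected fetuses, a log2 ratio of affected to control of -0.39. Mrps11 had 28.8, 29.7 and 25.9 FPKM and a log2 ratio of -0.15. Their control levels were nearly alike and their affected levels differed, and the annotation places 173 exon bases of the pair on top of each other.

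The tissue was checked against markers. The 9 markers of cortex used here, Emx1 and Tbr1 among them, passed the filter and summed to 892 FPKM in controls, 801 in unaffected and 1019.7 in affected fetuses. Markers of hindbrain summed to 0.14, 0.16 and 0.11 FPKM, with 4 of 6 at 0 in at least 1 group, and those of muscle to 0.48, 0.41 and 0.56 FPKM. Markers of blood, 6 of 8 found, summed to 458, 599.5 and 374 FPKM, in the same order of groups as the members. Those of choroid plexus (6 of 6) summed to 993, 1318 and 1106, of microglia (7 of 7) to 65.7, 67.9 and 56.8, of endothelium (6 of 6) to 62.2, 62.1 and 66.4, and of meninges (6 of 6) to 87.7, 81.0 and 78.8 FPKM, with 3 of 6 meningeal markers above 0 in affected against control and Dcn the lowest at -0.51. A sum follows its highest genes, and the list medians did not always go the same way. The endothelial sums were held largely by Cldn5, a junction protein, at 36.9, 38.4 and 33.9 FPKM, while the other 5 endothelial markers were above 0 in both comparisons of affected fetuses, with a median log2 ratio over all 6 of 0.27 against control and 0.42 against unaffected. Cortical progenitor markers (8 of 8) summed to 430.0, 449 and 522 FPKM, neuronal markers (6 of 6) to 3278, 3264 and 3104, held largely by Tubb3 and Stmn2, with 3 of 6 above 0 in affected against control and a median log2 ratio of 0.01, ventral telencephalic markers (6 of 6) to 163, 188 and 176, and those of thalamus and midbrain (5 of 5) to 16.6, 13.9 and 15.2. The part of these cell types in the members' values was not tested, and in bulk tissue fewer cells of a type and less RNA per cell cannot be told apart.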

How the data were processed

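RNA-seq libraries were made from tissue of 9 mouse fetuses, 3 per group, with the TruSeq RNA kit, which does not mark strand, and sequenced as paired 50-base reads. The labels give the groups. Per the methods and the submitters' processing notes, the authors aligned reads to mm10 (STAR, Bowtie and TopHat are named, with Bowtie2 2.2.4.0 in the notes) and used Cufflinks and Cuffdiff. The deposited FPKM were made by the authors' software, which gave 1 value per group and locus. How reads that fit several genes were shared out is not given in the sources used here. The table also holds the authors' fold changes, test statistics, p-values and q-values, which were not used. It has 0 columns of per-animal values.

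From the FPKM, log2 ratios were computed with a pseudocount of 0.1 FPKM, which understates the difference of low genes, over loci with a mean of at least 1 FPKM. A locus was called lower at a ratio of 0.8 or less and higher at an inverse ratio of 0.8 or less. No test was run, and the planned model per animal was not possible. The script was tested on simulated data. Depth per sample is unknown, and the number of animals limits precision. Python 3.11.15, numpy 2.4.6, pandas 2.3.3, scipy 1.17.1 and matplotlib 3.10.9 were used. Table starts count from 0 and were raised by 1 where a position is given. Overlaps, lengths and neighbours came from GENCODE M21, promoters from RefSeq GRCm38.p6.

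The members, gene lists and motifs were chosen with earlier results of these data known. Named members are the 5 lowest and 5 highest ratios in each comparison, the 5 highest and 3 lowest levels, members against the family's direction, joined loci, the Mrps18 paralogs and members listed by role. Of each other list the lowest and highest are named, and every subunit with another name. Sex-linked genes, neighbours' values and the lengths of other families were added after the table was seen, and genes named with these were chosen after their values were seen. One marker of cortex is not reported here and was left out of its list. Alternatives were other pseudocounts, level filters, scalings and fold limits, and leaving out joined or overlapping loci.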

Additional observations from a re-analysis of the deposited data

How the results depend on the processing

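The scaling and the limit for a call both moved the counts, and FPKM are shares of a library. Scaled so that all named loci had the same sum in each group, the median log2 ratio of all loci moved by 0.17, 0.25 and -0.07 in affected against control, affected against unaffected and unaffected against control. The members' medians were then -0.082, -0.13 and 0.038, with 3 and 9 members called lower in the first pair of comparisons. A scaling adds 1 constant to every log2 ratio, so the members' distance from the median of all loci, -0.28, -0.39 and 0.11, is the same under each by construction. Over all loci the equal-sum scaling put 4.81% lower and 31.7% higher in affected against control, and 5.29% and 43.3% in affected against unaffected. The same scaling turned the sign of some list medians. In affected against control these became 0.033 for assembly factors, 0.090 for translation factors, 0.060 for synthetases and 0.080 for transcription. In affected against unaffected they became 0.077, 0.086 and 0.12 for the last 3 lists, and in unaffected against control -0.030 for translation factors and -0.032 for transcription. Scaled to Gapdh and Ywhaz, 47 members were lower in affected against control. With a limit of 1.1-fold, 63 members were lower in that comparison, where 28.6% of all loci were, and 28 higher in unaffected against control, where 19.1% were. With a limit of 1.5-fold, 0 members were lower in affected against control and 8 in affected against unaffected, where 3.01% and 4.91% of all loci were. For the medians and counts of the family, the other 83 values under the alternatives stayed within 1.5 times the reported value. Single members were followed only for the 39 named by the rule above, where 152 values did not stay within that range and 874 did. No called member changed sign, and none could by scaling alone, because the largest constant, 0.25, is smaller than the limit of 0.32. Restricting the background to loci in the members' length range gave 9.12% lower and 6.82% higher in affected against control. No paired analysis was possible because the table gives 1 value per group, and for the same reason no animal could be left out. The unknown depth limits what can be said of the members under 10 FPKM.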
